A study of Mus musculus with 27 samples.

Results

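The transcripts of 41 DNA repair genes were followed in 3 tissues of MlxKO mice at 2 ages. The members were all rows of the deposited table whose symbol was among 41 named genes of nucleotide excision, base excision, mismatch, end-joining and recombination repair, and all 41 were found among the 36333 genes of the table. Every sample came from male mice in which a ubiquitous, tamoxifen-activated Cre (CreER at the ROSA26 locus) had excised exons 3 to 6 of a floxed Mlx gene, which encodes the shared dimerisation partner of a Myc-like family of transcription factors. The cross was between the B6.129 strain with cre/ERT2 knocked into Gt(ROSA)26Sor (allele tm1, Tyj/J) and Mlx Flox/Flox, and all mice had received 5 daily injections of tamoxifen in corn oil at weaning. Liver, omental adipose tissue and skeletal muscle were each taken from 4 mice at 5 months and 5 mice at 20 months, 27 libraries in all. By the numbers in their labels, the same 4 mice, here Y1 to Y4, gave all 3 tissues at 5 months. At 20 months no number is shared between tissues, so whether the same animals gave several tissues is not known. Mice of that age keep the numbers of their labels here. Mice without the deletion were not analysed here, so the comparisons below are between ages and between tissues of MlxKO mice.

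Cells repair different lesions with different machines. Nucleotide excision cuts out a short stretch of strand around bulky lesions, base excision removes single damaged bases, and mismatch repair corrects errors of replication. Double-strand breaks are sensed by the complex that holds RAD50 and NBN and by large kinases of the ATM family, and are then either rejoined directly by the Ku proteins, DNA-PKcs and ligase IV or copied from the sister chromatid with BRCA1 and BRCA2, a route that works mainly in cycling cells. In tissues whose cells rarely divide, such as muscle fibres, resting levels of the last route are usually low.

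The libraries held 14384695 to 25673919 reads assigned to genes. Mlx itself was measured, at 5 months, at 24.2 to 32.4 (liver), 8.20 to 10.97 (adipose tissue) and 7.04 to 11.6 (muscle), and at 18.8 to 27.8, 8.19 to 13.9 and 9.18 to 11.3 at 20 months, with no call between ages in any tissue (adjusted p = 0.168, 0.349 and 0.503 by limma). This level covers the whole gene, retained exons included, and without undeleted mice it does not check the excision. The paper's supplement lists qRT-PCR against undeleted tissue for mice with the label numbers of Y1 to Y4. More Mlx transcript remained in their skeletal muscle than in their liver or adipose tissue, and the older mice listed there had the same order. In adipose tissue and muscle those older mice also tended to keep more Mlx transcript than Y1 to Y4, with overlapping ranges. Comparisons between tissues thus also span unlike degrees of Mlx loss, and those between ages may do so. The summed level of 5 hepatocyte markers was 111500.0 to 168803 in liver at 5 months, that of 5 adipocyte markers was 5886 to 13229 in adipose tissue and that of 5 muscle fibre markers was 130918 to 147489 in muscle, which set each labelled tissue apart from the other two. Adipose libraries also held hepatocyte transcripts, 1876 to 3232 at 5 months and 91.1 to 738 at 20 months. All values below are the deposited normalised read counts, that is CPM divided by a factor of each library, so that 1 read was worth 0.0234 to 0.0806 units over the 27 libraries.

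Between ages, the share of repair genes called was close to that of all genes in liver and in muscle and above it in adipose tissue. Of the members with enough reads to test, 2 of 36 rose and 5 fell in liver, 8 of 40 rose and 4 fell in adipose tissue, and 7 of 36 rose and 0 fell in muscle. A call was an adjusted p under 0.05 by limma on log2(value + 1), over all genes tested. The muscle count of 0 stands beside 2 members lower at an unadjusted p under 0.05, 0 lower by edgeR and 1 lower by DESeq2. Among all genes, 19.8% were called in liver (10.03% higher and 9.79% lower), 19.1% in adipose tissue (9.75% higher and 9.35% lower) and 19.3% in muscle (9.13% higher and 10.1% lower). The share of members called was 19.4% in liver and in muscle and 30.0% in adipose tissue. These shares are a description, since the members were chosen with earlier results of these data known. In adipose tissue Brca1 entered the test through the older group, and with no filter on low values 5 members were called. Among the 87 further repair genes described below, 10.8% were called in adipose tissue. Values of young and old mice did not overlap for 6 of 36 members in liver and 11 of 40 in adipose tissue. Over all genes tested, the shares without overlap were 19.1% in liver and 17.4% in adipose tissue. Median log2 changes of the members were -0.11 (liver), 0.13 (adipose tissue) and 0.19 (muscle), against 0.0011, 0.0072 and 0.017 over all genes tested. Their changes were above 0 for 27 of 36 members in muscle and 26 of 40 in adipose tissue, but for 14 of 36 in liver. The liver direction depended on the scaling: with libraries scaled by their total without the 20 most abundant genes, the median change of all genes in liver moved from 0.0011 to 0.16, that of the members to 0.06, 21 of 36 were above 0, and the split became 2 higher and 1 lower. The splits then were 7 and 4 in adipose tissue and 11 and 0 in muscle. Chek1, a checkpoint kinase of replicating cells, was too low to test in any tissue. Neil2, Fanca and Fancd2 were tested only in adipose tissue, Brca1 in liver and adipose tissue, and Mutyh in adipose tissue and muscle. In bulk tissue, a change in the number of cells of a type and a change in the RNA of each cell cannot be told apart.

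**Figure D1:**
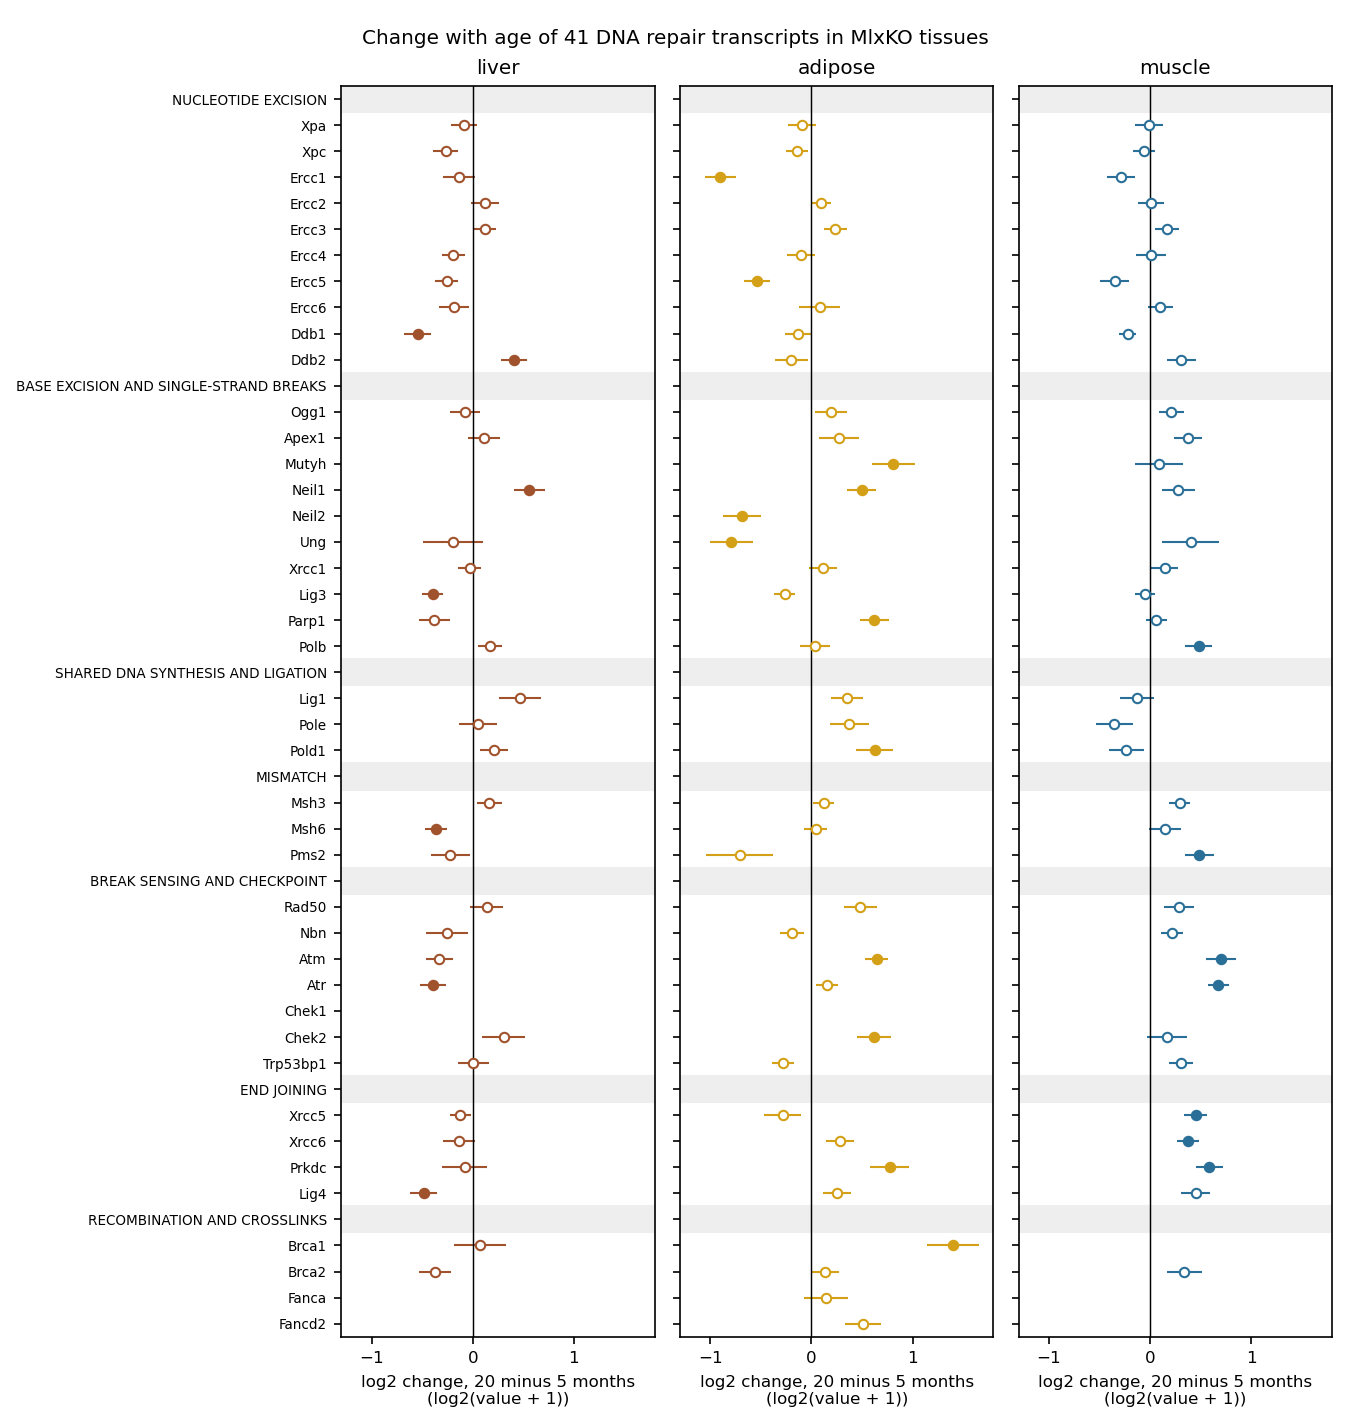
Log2 change from 5 to 20 months, on the log2(value + 1) scale, of each tested member in liver, adipose tissue and muscle, grouped by pathway. Points are limma estimates, bars 1 standard error, and filled points passed an adjusted p of 0.05; the 7 filled points in muscle all lie to the right of 0, and Brca1 in adipose tissue lies farthest from 0 at 1.40.

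Nucleotide excision had 10 members, all of them tested in each tissue. It gave 1 higher and 1 lower call in liver, 2 lower calls in adipose tissue and 0 calls in muscle (2 lower at an unadjusted p under 0.05). Its median log2 change was -0.16 in liver, -0.12 in adipose tissue and -0.00077 in muscle. Ercc1, which with XPF forms the nuclease that makes the 5′ incision, was 25.01, 32.5, 23.96 and 19.03 in the 4 adipose samples at 5 months and 15.5, 11.4, 12.4, 11.6 and 13.02 in the 5 at 20 months. Every older sample lay below every younger one. The group means were 25.1 ± 5.58 and 12.8 ± 1.63 (SD), and Ercc1 fell with a log2 change of -0.90 ± 0.15 (SE; limma adjusted p = 0.0118). Ercc5, the nuclease of the opposite incision (XPG), was 22.6, 29.7, 21.6 and 21.8 at 5 months and 18.98, 14.6, 14.7, 14.7 and 17.5 at 20 months, again with no overlap, and fell (log2 change -0.54 ± 0.13, limma adjusted p = 0.0274).

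In liver both subunits of the UV-DDB damage sensor were called, 1 lower and 1 higher, and the second call was weak. Ddb1, also the adaptor of a large family of ubiquitin ligases, was 298, 332, 274 and 288 at 5 months and 240.2, 203, 209, 223 and 153 at 20 months. It fell, with no overlap between ages (-0.55 ± 0.13, limma adjusted p = 0.0213). Ddb2, the subunit that contacts the lesion, was 4.84, 4.22, 4.06 and 3.84 at 5 months and 5.50, 6.31, 5.73, 5.40 and 6.77 at 20 months. It rose (0.40 ± 0.13, adjusted p = 0.0468 by limma), on counts of only 48 to 135 reads a library. That call was lost in 8 of 9 fits that left out 1 mouse and in 4 of 9 other settings (limma adjusted p up to 0.117), and 652 of the exon bases of Ddb2 lie opposite exons of Acp2. The liver of mouse 74 had the lowest Ddb1 of the 9 and the highest Ddb2. Across the other nucleotide excision members in liver, log2 changes ran from -0.27 for Xpc, the recognition factor of global repair, to 0.12 for the helicase genes Ercc2 and Ercc3, with none called.

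Base excision and single-strand break repair had 10 members, of which 8 were tested in liver, 10 in adipose tissue and 9 in muscle. Calls were split between directions in liver (1 higher, 1 lower) and in adipose tissue (3 higher, 2 lower), and muscle gave 1 higher. Its glycosylases, which cut single bases from the backbone, went both ways in adipose tissue. Mutyh, which removes adenine opposite oxidised guanine, was 1.44, 1.22, 1.49 and 2.07 in adipose tissue at 5 months and 2.86, 5.92, 3.69, 3.05 and 2.42 at 20 months, and rose (0.81 ± 0.21, limma adjusted p = 0.0342). The highest value was that of mouse 37, and all 5 older mice lay above the younger ones. Neil1, a glycosylase for oxidised pyrimidines, was called in liver and in adipose tissue. Its liver values were 5.15, 3.86, 5.28 and 3.52 at 5 months and 6.004, 6.46, 6.79, 8.46 and 7.22 at 20 months, and its adipose values 3.99, 3.18, 3.78 and 4.34 and 5.75, 5.10, 7.11, 4.66 and 6.60. In both tissues it rose with no overlap between ages (0.56 ± 0.15 with adjusted p = 0.0297, and 0.50 ± 0.14 with adjusted p = 0.0418, by limma). In muscle its change was 0.28 ± 0.16 (adjusted p = 0.217, limma), with 5 of 5 older mice above the mean of the younger ones.

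Neil2 and Ung were lower in old adipose tissue. Neil2, a related glycosylase that acts on single-stranded and bubble DNA, was 7.18, 7.57, 7.47 and 6.40 at 5 months and 5.98, 3.93, 2.83, 3.07 and 5.11 at 20 months, without overlap (-0.69 ± 0.19, limma adjusted p = 0.0369). Ung, which removes uracil, fell from 5.25 ± 1.62 to 2.58 ± 0.755 (SD, n = 4 and 5; -0.79 ± 0.21, adjusted p = 0.036 by limma). For Ung the ages overlapped: mouse Y4 at 5 months had 3.52 and mouse 40 at 20 months had 3.61.

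Downstream of the glycosylases, Parp1, the poly(ADP-ribose) polymerase that detects nicks, was 25.4, 20.505, 27.9 and 26.8 in young and 32.7, 33.9, 44.3, 38.1 and 48.2 in old adipose tissue. It rose with no overlap (0.62 ± 0.14, limma adjusted p = 0.0254), while in liver its change was -0.38 ± 0.15 (adjusted p = 0.0959, limma) and in muscle 0.06 ± 0.10 (adjusted p = 0.673, limma). Lig3, the ligase that seals nicks with XRCC1 and the main ligase of mitochondria, was 34.6, 42.5, 38.9 and 37.1 in young and 30.3, 28.4, 25.5, 32.1 and 27.8 in old liver. It fell (-0.40 ± 0.10, limma adjusted p = 0.0252), without overlap, and 25.1% of its exon bases lie opposite exons of Rffl. Polb, the gap-filling polymerase of this pathway, was 37.3, 38.7, 60.6 and 44.3 in muscle at 5 months and 67.7, 60.4, 58.2, 60.3 and 66.1 at 20 months, and rose (0.48 ± 0.13, limma adjusted p = 0.0286). Mouse Y3 at 5 months, with 60.6, lay within the older range. Apex1, the endonuclease that opens abasic sites, was not called in any tissue; 877 of its 1422 exon bases lie opposite Pip4p1, and whether the counting used strand is not given in the sources used here.

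**Figure D2:**
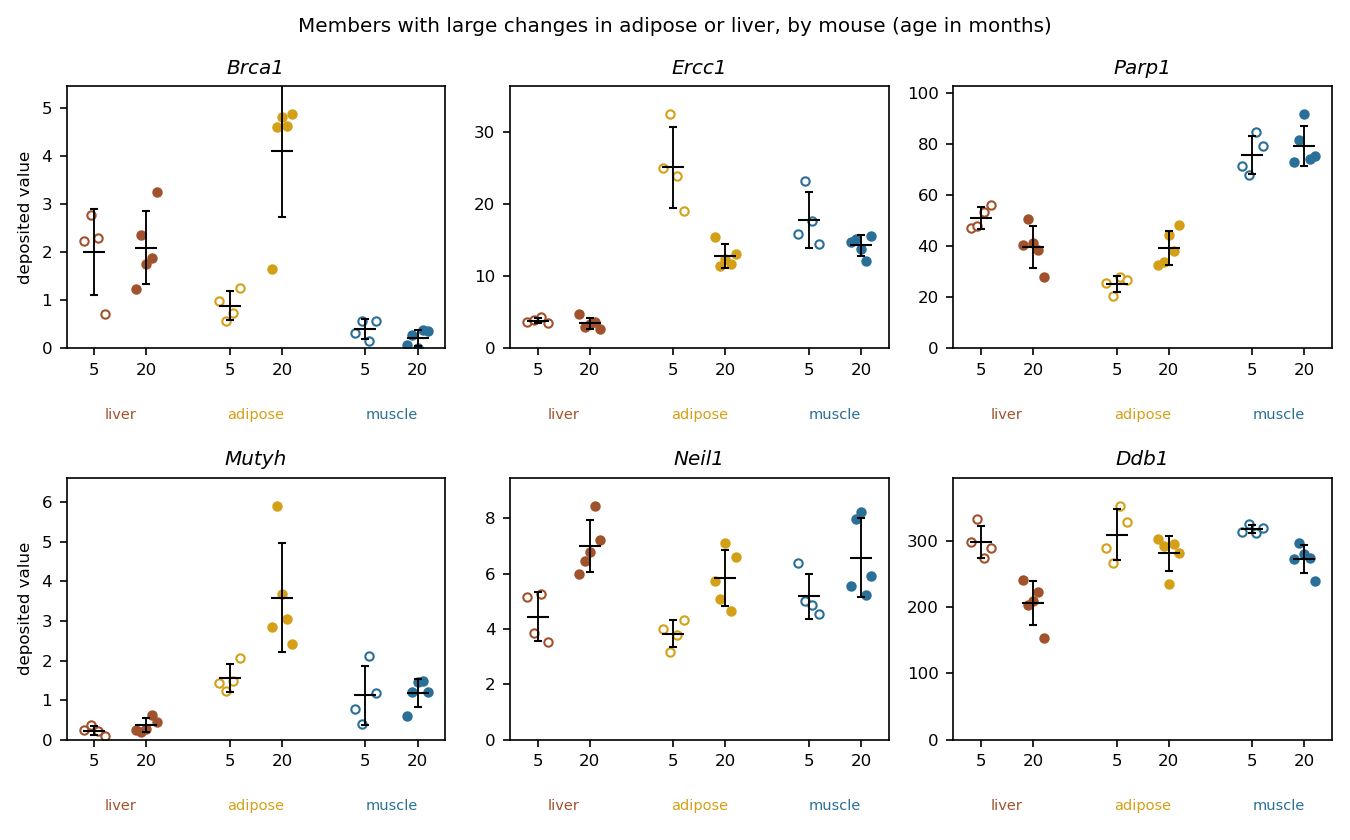
Deposited value of 6 members in each mouse, by tissue and age in months; open points are 5 months (n = 4), filled points 20 months (n = 5), and black bars the mean ± SD. Brca1 and Parp1 in adipose tissue are higher in all 5 older mice than in any younger mouse, Ercc1 in adipose tissue is lower in all 5, and Ddb1 in liver is lower in all 5.

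A further 3 members serve several pathways in the synthesis and joining of new strands: Lig1 (DNA ligase I) and Pole and Pold1 (catalytic subunits of polymerases epsilon and delta). None was called in liver or muscle, and Pold1 rose in adipose tissue, from 6.99, 6.65, 7.60 and 6.55 at 5 months to 11.3, 7.90, 12.6, 9.66 and 16.4 at 20 months (0.63 ± 0.18, limma adjusted p = 0.0411), without overlap. All 3 changes were above 0 in adipose tissue and in liver and below 0 in muscle. Of the 3 mismatch repair members, Msh6, a subunit of the complex that reads single-base mismatches, was 15.1, 13.5, 12.8 and 15.2 in young and 10.6, 11.6, 10.4, 11.1 and 9.77 in old liver and fell (-0.37 ± 0.11, limma adjusted p = 0.0382). Pms2, a subunit of the endonuclease that follows recognition, was 5.69, 4.84, 4.93 and 6.76 in young and 7.11, 9.51, 9.55, 7.42 and 7.41 in old muscle and rose (0.49 ± 0.14, limma adjusted p = 0.0329). Neither overlapped between ages. A share of 4.56% of the 50-base words in Msh6 transcripts and 4.08% in Pms2 transcripts also occurs in transcripts of other annotated genes.

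The 3 break-signalling kinases rose in muscle, and in liver 1 of them, Atr, was called lower. That liver call was weak, lost in 6 of 9 fits that left out 1 mouse and in 3 of 9 other settings. Atm, Atr and Prkdc encode the related kinases ATM, which answers double-strand breaks, ATR, which answers single-stranded DNA at stalled forks, and DNA-PKcs, which holds ends for joining. Atm was 13.1, 9.67, 8.45 and 12.1 in young and 15.97, 19.8, 19.96, 14.9 and 20.03 in old muscle, and 13.4, 11.9, 10.6 and 14.4 in young and 20.4, 21.5, 17.01, 21.1 and 20.8 in old adipose tissue. It rose in both, with no overlap (0.70 ± 0.15, adjusted p = 0.0102, and 0.64 ± 0.12, adjusted p = 0.0132, by limma). In liver, Atm went the other way without a call, from 17.5 ± 1.52 to 13.8 ± 2.26 (SD, n = 4 and 5; -0.33 ± 0.13, adjusted p = 0.0951 by limma).

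Atr was 9.30, 8.71, 8.22 and 9.48 in young and 15.6, 13.8, 13.9, 16.4 and 14.6 in old muscle. Its young muscle values ran only from 8.22 to 9.48, and it had the smallest adjusted p of all members in any tissue (0.68 ± 0.10, limma adjusted p = 0.00297). In liver it was 17.4, 23.6, 25.7 and 23.03 at 5 months and 17.5, 15.9, 16.6, 15.2 and 18.4 at 20 months and fell (-0.39 ± 0.13, limma adjusted p = 0.0495), although mouse Y1 at 5 months overlapped the older mice. The liver falls of Atr, Lig3, Lig4 and Msh6 kept their sign but not their call when scaled without the 20 most abundant genes (-0.23, -0.23, -0.34 and -0.21, limma adjusted p = 0.266, 0.138, 0.143 and 0.212), while that of Ddb1 was still called (-0.37, adjusted p = 0.0257 by limma). In adipose tissue the change was 0.15 ± 0.11 (adjusted p = 0.296, limma). Chek2, the checkpoint kinase that ATM activates, was 2.39, 3.10, 3.55 and 4.37 in young and 4.48, 4.79, 6.57, 6.33 and 6.09 in old adipose tissue and rose, with no overlap (0.62 ± 0.17, limma adjusted p = 0.0366). Rad50 and Nbn, members of the complex that first binds broken ends, and Trp53bp1, which favours end joining over resection, were not called in any tissue. In muscle all 6 tested members of this group had changes above 0, from 0.17 to 0.70.

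All 4 end-joining members were higher in old than in young muscle, with no overlap between ages for any of them, and 3 passed the test. Non-overlap of this kind was seen for 17.3% of all genes tested in muscle and for 9 of the 36 tested members. Of the 6 further end-joining genes in the wider list below, none was called in muscle and all overlapped between ages. Their median change was 0.095, with 4 of 6 above 0. Prkdc was 9.91, 8.87, 6.97 and 7.18 in young and 11.2, 13.1, 11.7, 13.6 and 14.4 in old muscle (0.59 ± 0.13, limma adjusted p = 0.013). Xrcc5 and Xrcc6, which encode Ku80 and Ku70, the ring that slides onto a broken end, rose together. Xrcc5 was 21.8, 19.4, 19.1 and 18.7 at 5 months and 28.04, 24.1, 27.99, 23.9 and 33.5 at 20 months (0.45 ± 0.11, limma adjusted p = 0.0216). Xrcc6 was 21.9, 19.4, 26.1 and 25.6 and 28.8, 32.6, 31.4, 27.7 and 31.6 (0.38 ± 0.11, limma adjusted p = 0.0337). Lig4, the ligase that seals the ends, was 6.38, 3.79, 5.17 and 5.64 in young and 6.59, 8.18, 8.39, 6.69 and 7.48 in old muscle and missed the threshold (0.45 ± 0.15, limma adjusted p = 0.0501).

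In adipose tissue, Prkdc was the one member of this pathway that was called: 11.3, 6.58, 8.33 and 12.4 at 5 months against 15.6, 18.9, 12.8, 16.5 and 21.1 at 20 months (0.77 ± 0.19, limma adjusted p = 0.0302), with no overlap. In liver, Lig4 fell from 6.81, 7.42, 7.06 and 6.16 to 4.07, 4.96, 4.35, 4.26 and 5.46, without overlap (-0.49 ± 0.13, limma adjusted p = 0.0266), and the changes of the other 3 members were between -0.14 and -0.08 with no call.

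**Figure D3:**
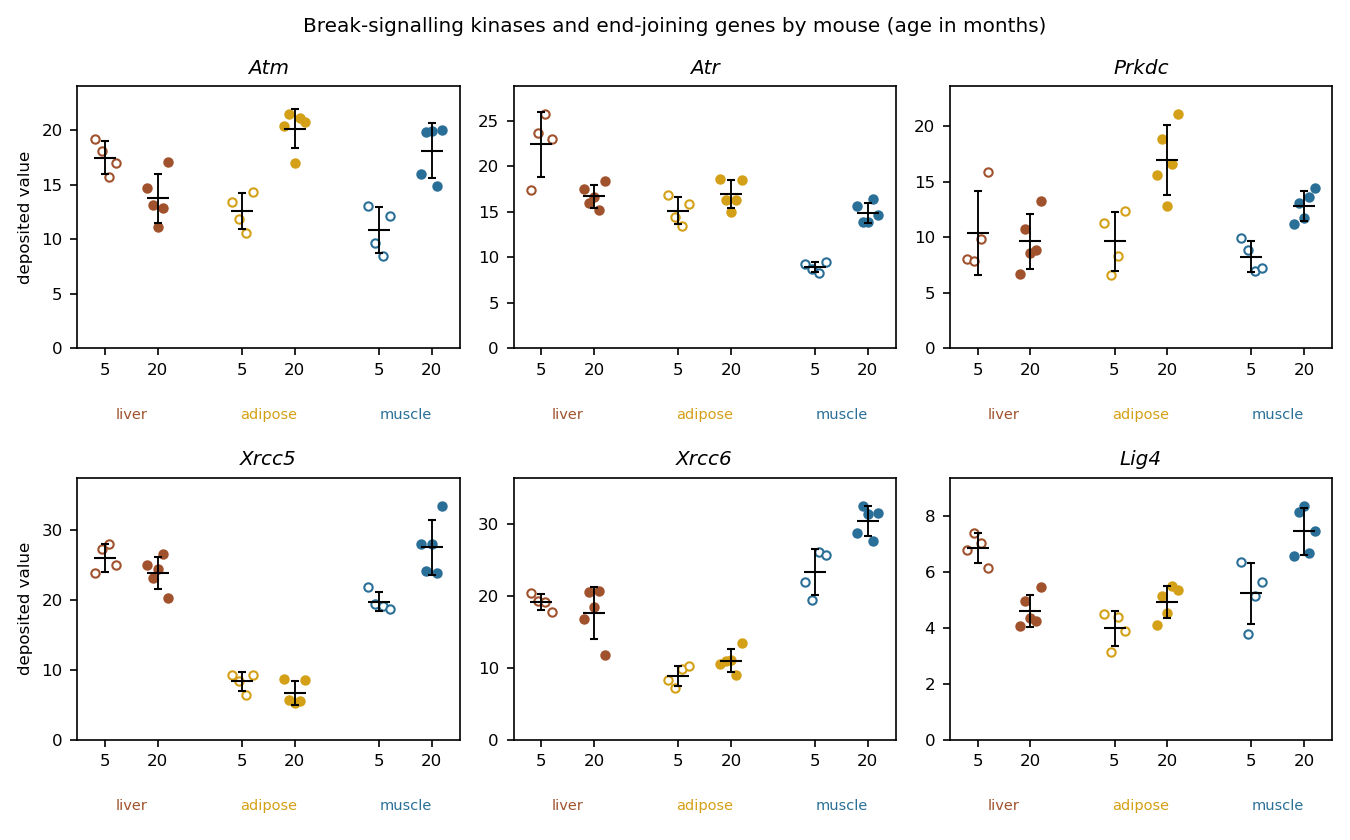
Deposited value of the 3 break-signalling kinases and of the Ku and ligase IV genes in each mouse, by tissue and age in months; open points are 5 months (n = 4), filled points 20 months (n = 5), and black bars the mean ± SD. In muscle the older mice lie above all younger mice for each of the 6 genes, while in liver Atr and Lig4 are lower in the older group.

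The start regions of members that moved together in muscle were read from the RefSeq promoter set (GRCm38.p6), as 250 bases before and 50 bases after an annotated transcription start. The E-box CACGTG, the core letters bound by Myc-type and Mlx-type dimers, and an E2F-type site, bound by factors of S-phase genes (TTTCCCGC, TTTGGCGC, TTTCGCGC or TTTGCCGC), were searched on both strands, with overlapping matches counted. A promoter was listed for 31 of the 41 members, in 35 windows, and not for Prkdc. The E-box occurred for 6 of these 31 members (Xrcc5, Parp1, Lig1, Lig3, Ercc6 and Apex1, the last with 3 copies), against 7.15% of all 32851 promoters. The E2F-type letters occurred for 7 (Chek2, Brca2, Lig1, Pold1, Msh3, Xrcc6 and Msh6), against 2.26% of all promoters. Members' windows had a median GC content of 58.3%, against 52.7% for all. A member with several windows counted if any of them held a match, while the shares of all promoters are per window. A match describes letters only. The windows of Xrcc5, Xrcc6, Atm and Atr, called in muscle, and of Brca1, the member with the largest change, are shown 5′ to 3′ on the strand of the gene, with these motifs in capitals. Neither motif occurs in the Atm, Atr and Brca1 windows, Xrcc5 holds an E-box that begins 198 bases before the start, and Xrcc6 holds an E2F-type match that begins 46 bases before it. Their positions are chr1:72307171-72307470 (plus strand) for Xrcc5, chr15:82016119-82016418 (plus) for Xrcc6, chr9:53536622-53536921 (minus) for Atm, chr9:95857347-95857646 (plus) for Atr and chr11:101551906-101552205 (minus) for Brca1.
Xrcc5: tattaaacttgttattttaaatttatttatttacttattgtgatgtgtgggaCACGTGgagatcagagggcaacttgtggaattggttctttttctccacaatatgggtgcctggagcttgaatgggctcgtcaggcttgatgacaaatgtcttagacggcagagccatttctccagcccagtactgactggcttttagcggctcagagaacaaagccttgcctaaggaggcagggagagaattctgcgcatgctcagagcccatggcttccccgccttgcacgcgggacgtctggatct
Xrcc6: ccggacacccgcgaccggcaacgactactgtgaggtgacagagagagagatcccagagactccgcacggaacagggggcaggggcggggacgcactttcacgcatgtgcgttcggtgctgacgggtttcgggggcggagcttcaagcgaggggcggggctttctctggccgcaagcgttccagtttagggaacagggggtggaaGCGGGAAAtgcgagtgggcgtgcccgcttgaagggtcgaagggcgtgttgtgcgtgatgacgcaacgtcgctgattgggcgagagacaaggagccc
Atm: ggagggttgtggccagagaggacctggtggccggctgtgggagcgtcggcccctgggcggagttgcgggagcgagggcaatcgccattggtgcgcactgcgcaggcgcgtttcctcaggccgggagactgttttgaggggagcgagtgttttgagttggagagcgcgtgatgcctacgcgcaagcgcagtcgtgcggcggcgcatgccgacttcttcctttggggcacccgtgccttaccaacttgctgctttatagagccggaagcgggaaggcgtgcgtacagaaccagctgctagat
Atr: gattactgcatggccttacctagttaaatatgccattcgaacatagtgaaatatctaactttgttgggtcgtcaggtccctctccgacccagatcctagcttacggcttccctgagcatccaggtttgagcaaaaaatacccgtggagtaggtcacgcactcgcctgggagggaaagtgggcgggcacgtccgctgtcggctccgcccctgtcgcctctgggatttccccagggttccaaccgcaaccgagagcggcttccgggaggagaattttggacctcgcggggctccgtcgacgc
Brca1: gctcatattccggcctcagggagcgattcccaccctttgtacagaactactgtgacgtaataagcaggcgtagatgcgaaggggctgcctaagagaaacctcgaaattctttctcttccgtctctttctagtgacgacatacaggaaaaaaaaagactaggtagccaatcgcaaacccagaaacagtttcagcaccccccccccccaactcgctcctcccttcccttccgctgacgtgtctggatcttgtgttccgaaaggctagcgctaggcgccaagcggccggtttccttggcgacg

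Recombination and crosslink repair had 4 members, and only 2 of them could be tested in liver and 1 in muscle. Brca1, which with BARD1 starts resection and loads the recombinase, had the largest change of any member. In adipose tissue it was 0.989, 0.554, 0.730 and 1.25 at 5 months, from 31, 15, 22 and 43 reads, and 1.65, 4.59, 4.82, 4.62 and 4.87 at 20 months, from 56, 118, 162, 197 and 163 reads. Of the older mice, 4 lay between 4.59 and 4.87, and mouse 36, with 1.65, was only just above the highest younger mouse. Brca1 rose by 1.40 ± 0.26 on the log2 scale (limma adjusted p = 0.0138). Only 1 of the 4 younger mice reached the value of 1 that the filter asked for in 4 samples, so it entered the test through the older group. In liver its means were 1.998 ± 0.886 and 2.09 ± 0.767 (SD; 0.07 ± 0.26, adjusted p = 0.87 by limma), and in muscle it was represented by 0 to 8 reads a library. Brca2, Fanca and Fancd2, which load the recombinase or act in crosslink repair, were not called in adipose tissue, where their changes were 0.14, 0.15 and 0.51.

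Markers of other cells moved with age in the same adipose samples. All 5 B cell markers rose there, and their summed level ran from 5.39 to 21.7 at 5 months to 18.1 to 189 at 20 months. Of 9 cycling-cell markers 6 rose, with sums of 14.6 to 28.2 and 22.5 to 107. Of 5 macrophage markers 2 rose (317 to 655 and 521 to 1707), of 5 T cell markers 1 rose (6.98 to 13.97 and 5.76 to 53.1), and of 6 replication licensing genes 1 rose (57.9 to 84.5 and 67.5 to 111). None of these markers was at 0 throughout an adipose group. Mouse 36, with the low Brca1, also had the lowest cycling-cell and macrophage sums of the older mice, 22.5 and 521, each within the younger range. Its replication licensing sum, 74.1, lay within the younger range but was not the lowest. Its B cell sum of 115 and T cell sum of 31.95 lay above the younger ranges. The part of these cells in the adipose results was not tested. In liver the summed hepatocyte markers were lower at 20 months, 45549.7 to 102368, than the 111500.0 to 168803 at 5 months, without overlap, with 1 of 5 markers called lower. Their part in the liver results was not tested. In liver the B cell markers also rose (5 of 5, sums 2.18 to 8.24 and 9.97 to 19.7), as did 2 of 5 macrophage markers. The livers of mice Y1, Y2 and Y3 had B cell sums of only 3.12, 2.18 and 3.49. These markers could thus pass the filter through the older group, so the B cell rise in liver is a description. In muscle, no B or T cell marker was high enough to test (B cell sums 0.384 to 4.95 and 0.570 to 2.65, T cell sums 0.157 to 0.384 and 0.217 to 0.848), 2 of 5 macrophage markers fell (70.2 to 109 and 33.9 to 62.8), and 0 of the 2 cycling-cell markers tested were called.

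**Figure D4:**
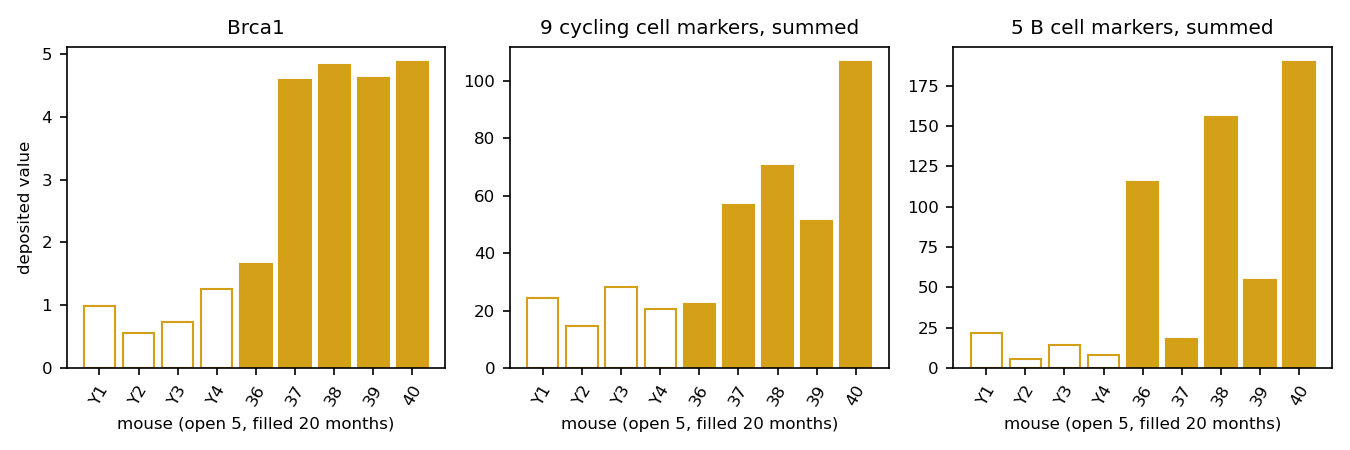
Brca1 and the summed levels of 9 cycling-cell and 5 B cell markers in each adipose library, as deposited values against mouse; open bars are the 4 mice at 5 months and filled bars the 5 at 20 months. Mouse 36 has the lowest Brca1 (1.65) and the lowest cycling-cell sum (22.5) of the older mice, but not the lowest B cell sum.

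Whether an age change differed between tissues was tested directly in 1 fit of all 27 libraries, with 40 members tested. Between liver and adipose tissue 10 members differed, against 15.6% of all genes, between liver and muscle 6 (17.5%) and between adipose tissue and muscle 7 (14.7%). All 6 members that separated liver from muscle had the lower change in liver: Atr, Atm, Lig4, Brca2, Xrcc5 and Msh6. Scaled without the 20 most abundant genes, 3 of these 6 were still called (Atr, Atm and Lig4). For Atr the change in liver minus that in muscle was -1.07 ± 0.15 (limma adjusted p = 7.12e-05), and for Atm the change in liver minus that in adipose tissue was -0.98 ± 0.19 (adjusted p = 0.00135 by limma), each the smallest adjusted p of its pair of tissues. For Brca1 the change in adipose tissue minus that in muscle was 1.60 ± 0.33, a description only, since muscle held 0 to 8 of its reads a library. Members could enter this fit through 1 tissue: without those that failed the filter in either tissue (Neil2 and Fancd2 in liver, Brca1 in muscle), 8, 6 and 6 of the differences are left. By pathway, liver and adipose tissue differed for 2 members each of nucleotide excision, base excision, break sensing, end joining and recombination. With the mouse as a block, 10, 6 and 10 members differed, the added calls being Parp1, Ung and Fancd2 between adipose tissue and muscle (limma adjusted p with the block = 0.0398, 0.0495 and 0.0459, against 0.0514, 0.0559 and 0.0547 without it).

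Levels between genes were compared per kilobase of annotated exon. At 5 months Ddb1 was the highest member in each tissue, at 46.5 per kilobase in liver, 48.2 in adipose tissue and 49.5 in muscle, and Apex1, Nbn and Parp1 were among those that followed. The lowest were Chek1 in liver (0.0152) and adipose tissue (0.0899) and Fanca in muscle (0.0324). Nucleotide excision had the highest pathway median in each tissue (4.18 in liver, 4.69 in adipose tissue and 4.42 in muscle), and recombination the lowest (0.146, 0.140 and 0.0584). The members that passed the filter had a median of 2.04, 2.04 and 2.06 per kilobase, against 4.604, 3.59 and 4.09 over all genes tested in liver, adipose tissue and muscle.

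**Figure D5:**
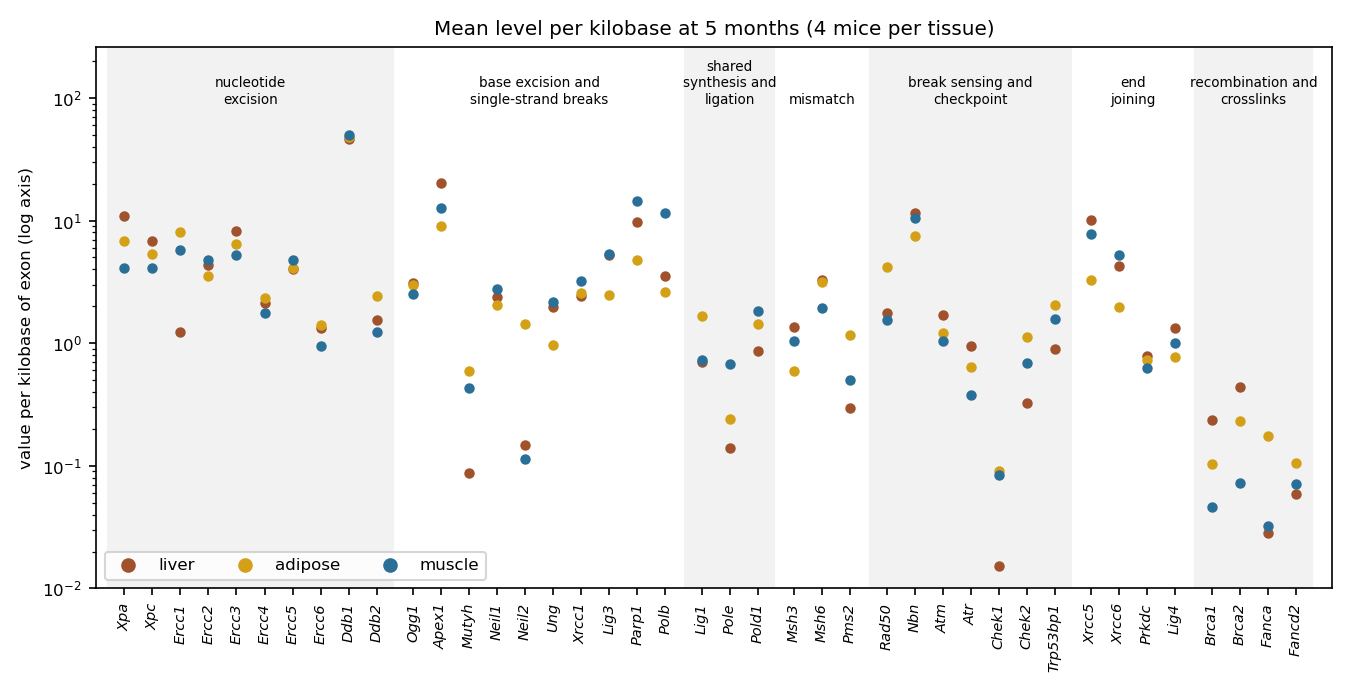
Mean deposited value per kilobase of exon at 5 months (log axis) for each of the 41 members, by pathway; each point is the mean of 4 mice in liver, adipose tissue or muscle. Ddb1 lies highest in all 3 tissues, and Chek1 (liver and adipose tissue) or Fanca (muscle) lowest.

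Tissues differed for most members, as they did for most genes. At 5 months 29, 23 and 31 of 40 members were called for liver against adipose tissue, liver against muscle and adipose tissue against muscle. Of all 15572 genes tested, 11895, 11348 and 11339 were called. At 5 months, 17 of 40 members were higher in liver than in adipose tissue (36.5% of all genes) and 12 were lower (39.9%), 13 were higher in liver than in muscle (36.03%) and 10 lower (36.8%), and 17 were higher in adipose tissue than in muscle (41.9%) and 14 lower (30.9%). At 20 months the counts were 10 and 18 (35.7% and 38.8%), 10 and 17 (39.2% and 38.1%), and 16 and 14 (42.1% and 33.9%), in the same order. These splits depended on the scaling. Without the 20 most abundant genes in the total, the median of all genes for liver minus adipose tissue at 5 months moved from -0.072 to -0.85, and the split of members became 1 higher and 28 lower, with 9 of the 29 calls turned in sign, 5 of them called in the opposite direction. In the same way liver against muscle became 9 and 16, and adipose tissue against muscle 26 and 6, where the median of all genes moved from 0.18 to 0.74. At 20 months the splits became 3 and 31, 5 and 19, and 25 and 8. With median-of-ratios scaling they were 18 and 12, 12 and 10, and 14 and 14 at 5 months. Among members that passed the filter in both tissues, the calls at 5 months as deposited were 17 and 9 of 36, 12 and 9 of 35, and 15 and 14 of 36. The largest fitted differences at 5 months were those of Ercc1 and Neil2. Ercc1 was 3.69, 3.86, 4.35 and 3.44 in liver, 25.01, 32.5, 23.96 and 19.03 in adipose tissue and 15.9, 23.2, 17.7 and 14.4 in muscle, so that no liver value reached those of the other tissues. The log2 difference was -2.41 ± 0.16 for liver minus adipose tissue (limma adjusted p = 3.71e-13), -1.94 ± 0.16 for liver minus muscle (1.95e-11) and 0.47 ± 0.16 for adipose tissue minus muscle (0.00927). At 20 months, adipose tissue and muscle differed by -0.15 ± 0.14 (limma adjusted p = 0.341), with values of 15.5, 11.4, 12.4, 11.6 and 13.02 and 14.7, 15.2, 13.8, 12.1 and 15.5. Scaled without the 20 most abundant genes, Ercc1 was higher in adipose tissue than in muscle at both ages (1.14 and 0.40, limma adjusted p = 3.37e-07 and 0.011).

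Neil2 was 7.18, 7.57, 7.47 and 6.40 in adipose tissue, while in liver it was 0.573, 0.800, 0.713 and 0.880 and in muscle 0.845, 0.564, 0.235 and 0.627, from 3 to 11 reads a library in those 2 tissues. Neil2 failed the filter in liver and in muscle and entered the fit through adipose tissue, so these values are a description. Polb stood out in muscle, with 37.3, 38.7, 60.6 and 44.3 against 11.96, 14.3, 14.9 and 14.5 in liver and 11.2, 8.46, 9.06 and 12.4 in adipose tissue, a log2 difference of -2.02 ± 0.14 for adipose tissue minus muscle (limma adjusted p = 3.04e-12). Of the end-joining genes, Xrcc5, Xrcc6 and Lig4 were higher in liver than in adipose tissue and lower in adipose tissue than in muscle as deposited. Scaled without the 20 most abundant genes, only Xrcc5 of these was called higher in liver than in adipose tissue (log2 difference 0.64, against 1.55), Lig4 turned in sign in both pairs (-0.15 and 0.26, not called), and Xrcc5 and Xrcc6 were still lower in adipose tissue than in muscle. Xrcc5, for example, was 9.19, 8.46, 6.37 and 9.26 in adipose tissue, 23.8, 27.3, 28.02 and 24.95 in liver and 21.8, 19.4, 19.1 and 18.7 in muscle.

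A wider list of 87 further repair genes of the same pathways gave 8 higher and 5 lower calls of 76 tested in liver, 6 higher and 3 lower of 83 in adipose tissue, and 8 higher and 2 lower of 76 in muscle. Shares called were 17.1%, 10.8% and 13.2%, below the share of all genes in each tissue. In muscle 60 of the 76 changes were above 0, with a median of 0.16. By pathway, base excision gave 2, 2 and 1 calls in liver, adipose tissue and muscle, all higher, and end joining gave 1 (higher), 0 and 0. Nucleotide excision gave 1 higher and 2 lower, 1 and 1, and 3 and 1. Shared synthesis gave 3 higher and 0 lower, 1 and 1, and 2 and 0, mismatch 0, 0 and 2 (both higher), break sensing 3 lower, 1 higher and 0, and recombination 1 higher, 1 of each, and 1 lower. The largest called change belonged to Rif1 in liver, a factor that shields broken ends (27.6 ± 2.31 to 15.8 ± 2.31, log2 change -0.77, limma adjusted p = 0.00785), to Nthl1 in adipose tissue, a glycosylase for oxidised pyrimidines (1.73 ± 0.782 to 3.82 ± 0.369, log2 change 0.86, limma adjusted p = 0.0246), and to Pms1 in muscle, a mismatch repair subunit (1.37 ± 0.141 to 3.32 ± 1.05, log2 change 0.82, limma adjusted p = 0.0199).

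Many of these calls were lost when 1 mouse was left out, in fits where calls over all genes fell too. In liver 980 and 959 genes were called without mouse Y2 or 18, against 2508 with all mice. In adipose tissue 397 genes were called without mouse Y1 (2674 with all), and in muscle 1158 without mouse 60 (2451 with all). In liver, leaving out mouse Y2 at 5 months or mouse 18 at 20 months left 0 of the 7 calls (3 higher and 6 lower, and 2 higher and 6 lower, at an unadjusted p under 0.05 by limma), leaving out mouse Y4, 17 or 19 left 2, and leaving out mouse Y1 or Y3 left 3. Of the 12 calls in adipose tissue, 3 remained without mouse Y1, Y2 or 39, 4 without mouse 38, 5 without mouse 37 and 6 without mouse 40, and of the 7 in muscle, 3 remained without mouse 60 and 4 without mouse Y2, 57 or 58. The calls of Ercc1, Atm and Brca1 in adipose tissue and of Atm, Atr and Prkdc in muscle remained in every fit that left out 1 mouse. For Brca1 this is a description only, since it entered the test through the older group, where it was high.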

How the data were processed

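RNA from liver, omental adipose tissue and skeletal muscle of MlxKO mice was sequenced from poly(A)-selected, directional libraries. The authors deposited 1 table of 36333 genes, headed CPM and made in CLC Genomics Workbench; the annotation, the counting settings and the use of strand are not given in the sources used here, and the submitters' processing notes name GRCm38.p6 and mm10. The deposited values behave as a signal, CPM divided by a factor of each library: 100% were whole multiples of 1 read within 0.01 read. The test design had assumed plain CPM, and the same test was kept. The labels and the paper's main text give the older age as 20 months, while codes within the same titles carry the number 18. The paper's supplement lists mice of 18 months whose numbers end in those of the older libraries of each tissue. The older group may thus have been 18 months old, and the age of the labels was used.

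Groups follow the labels. Genes that reached a value of 1 in 4 or more samples were tested on log2(value + 1), a scale that understates the change of low genes, with limma 3.58.1 (variance trend, Benjamini-Hochberg adjustment, threshold 0.05), in R 4.3.3. Ages were compared within a tissue (9 libraries), and age changes and tissues in 1 fit of 27. The recovered read counts went to edgeR 4.0.16 and DESeq2 1.42.0 as alternatives (edgeR called 2578, 2692 and 2453 genes in liver, adipose tissue and muscle). At 5 months the mouse numbers in the titles mark the same animals in all 3 tissues. The deviations of 12 same-mouse pairs of libraries had a mean correlation of 0.136 (-0.0169 to 0.294), and a fit with the mouse as a block was an alternative. Scripts were tested on simulated data. No 2 libraries of a group held identical values.

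The members, their pathways, the marker lists and the list of 87 further genes were chosen with earlier results of these data known. Members named with values in every mouse are those called in a tissue (at most 8 in each tissue, by size of change), those called in 2 tissues, those with the smallest p for a difference of age changes, and those with the largest tissue difference at 5 months or the highest or lowest level per kilobase; Lig4 in muscle, and Parp1, Chek2 and Ercc5 in adipose tissue, were added after their values were seen. Among the further genes, the 1 with the largest called change in a tissue is named. Exon lengths and overlaps came from GENCODE vM21, matched by gene, and promoters from RefSeq GRCm38.p6. Length and GC were known for 95.6% to 96.0% of the genes tested.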

Additional observations from a re-analysis of the deposited data

Results flagged for a closer look

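In 52 sets of 4 or 5 mice (members called in a tissue, at each age), 3 values stood far from the rest of their group by Dixon's criterion, which chance alone gives in about 1 of 20 groups. All 3 were in adipose tissue. Ercc5 was 29.7 in mouse Y2 at 5 months, against 21.6 to 22.6 in the other 3, Atm was 17.01 in mouse 38 at 20 months, against 20.4 to 21.5 in the other 4, and Brca1 was 1.65 in mouse 36 at 20 months, against 4.59 to 4.87 in the other 4. Ercc5 in mouse Y2 lay farther from the 20-month values (14.6 to 18.98) than the rest of its group, and Brca1 in mouse 36 lay nearer to the 5-month values (0.554 to 1.25).

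The age change differed between tissues, by the test of the difference itself in the fit of 27 libraries (limma, 40 members tested in each pair), for 23 pairs of a member and 2 tissues. Between liver and adipose tissue, the change in liver minus that in adipose tissue, on the log2 scale, was -0.98 for Atm, -0.9999 for Parp1, -0.74 for Lig4, -1.33 for Brca1, -0.55 for Atr, -0.86 for Prkdc and -0.60 for Fancd2, and 0.77 for Ercc1, 0.87 for Neil2 and 0.61 for Ddb2. Between liver and muscle it was -1.07 for Atr, -1.03 for Atm, -0.94 for Lig4, -0.71 for Brca2, -0.57 for Xrcc5 and -0.52 for Msh6. Between adipose tissue and muscle it was 1.60 for Brca1 and 0.86 for Pold1, and -0.74 for Xrcc5, -0.52 for Atr, -1.20 for Pms2, -0.59 for Trp53bp1 and -0.62 for Ercc1. Atr differed in all 3 pairs of tissues. Neil2 and Fancd2 failed the filter in liver and Brca1 in muscle, so their differences from those tissues rest on few reads there. The calls of Ercc1 between adipose tissue and muscle, of Xrcc5 and Msh6 between liver and muscle, and of Ddb2, Prkdc and Fancd2 between liver and adipose tissue were lost in 8 to 20 of the 27 fits that left out 1 library, those of Trp53bp1 and Pms2 between adipose tissue and muscle in 6 and 1 of them, and the other calls in 0.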

How the results depend on the processing

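Alternatives were run on each change between ages, each difference of age change and the tissue differences named with a test. Of 510 refits of such a value under another setting, 439 kept their direction and side of the threshold, 70 lost the call and 1 turned: Ercc1 in adipose tissue against muscle at 20 months, 0.40 when scaled without the 20 most abundant genes against -0.15. Of 1098 refits that left out 1 library, 907 kept both and 191 lost the call. With no filter on low values, 2, 5 and 4 members were called between ages in liver, adipose tissue and muscle (7, 12 and 7 as reported), with 1732, 1525 and 1507 genes called in all. A mean value of at least 5 left 7 calls in adipose tissue. Scaling without the 20 most abundant genes gave 3 calls in liver, 11 in muscle and 3 for the age change of liver against muscle (6 as reported). Removing the trend of length and GC gave 2 in liver. A pseudocount of 0.1 and edgeR each gave 6 for the age change of liver against adipose tissue (10 as reported). Leaving out 1 library gave 3 to 13 calls in adipose tissue, 0 to 8 in liver and 3 to 8 in muscle, 7 to 11 and 4 to 7 for the age changes of liver against adipose tissue and against muscle, and 4 (without the adipose library of mouse Y2) to 13 (without that of mouse 36) for adipose tissue against muscle. The causes were not tested. The total counts of the tissue comparisons stayed within 1.5 times, but their directions did not hold when scaled without the 20 most abundant genes: liver against adipose tissue went from 17 higher and 12 lower to 1 and 28 at 5 months, sharing 18 called members, and from 10 and 18 to 3 and 31 at 20 months, sharing 22. The age change of liver against adipose tissue went from 3 and 7 to 3 and 4 in that scaling and to 1 and 5 by edgeR, and that of adipose tissue against muscle from 2 and 5 to 4 and 4 with median-of-ratios scaling.

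The paired fit, with the replicate block (mouse), gave 10, 6 and 10 differences of age change (10, 6 and 7 without it), where Ung, Parp1 and Fancd2 were added between adipose tissue and muscle, and 31, 23 and 31 members for the tissue pairs at 5 months (29, 23 and 31 without it), where Ercc2 and Fancd2 were added. At 20 months it gave 29, 27 and 30 (28, 27 and 30 without it), where Ercc5 was added; it changed no other call. Together with the removal of length and GC trends, an alternative chosen after seeing the data, it gave 9, 5 and 8 differences of age change. Depth limits the lowest members: Chek1 had 0 to 6 reads a library in liver, and Brca1 had 0 to 8 in muscle.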
